A study of Paralichthys olivaceus with 6 samples.

Results

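Antigen presentation by MHC class II was followed here through 9 unigenes of the 52474 in the gonad transcriptome of Japanese flounder (*Paralichthys olivaceus*). A unigene is a contig of the merged assembly and stands for a transcript. The 9 carry the zebrafish names *cd74a* (4 unigenes), *ctssb.1* (2) and *b2m* (1) and that of a class II beta chain locus (Contig15336 and Contig1884) in the study's list of unigenes that differed between fertile and sterile gonads. They were therefore chosen on the very contrast described below, and the fold changes of these unigenes are given as a description and not as a test. Of the 9, 6 had counts in every library and passed the filter on low counts. The other 3, 2 of *cd74a* and the *b2m* unigene, had counts in S4 and S5 alone and are treated apart.

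All 6 fish were double haploid females of age 5 years, made by mitogynogenesis from a single wild mother, so that each fish carries a single doubled set of maternal chromosomes. The fertile group (F1, F2 and F3) had produced viable progeny and its ovaries were at stage V. The sterile group had produced no eggs and the ovaries were labelled stage III, so stage and fertility cannot be told apart. Each library is taken as 1 gonad, although the protocol also speaks of pooled RNA. The sterile libraries are S1 and a further pair called S4 and S5 in the count table, whose numbers match no sample and whose column names end differently from those of the other 4 libraries. They were placed in the sterile group by their letter. The library totals ranged from 25024469 to 35719683 counts, and 1 count was worth 0.0292 to 0.0395 CPM (counts scaled to a common library size by TMM). The order of the totals is that of the study's clean reads if S4 is its S2 and S5 its S3. This match was not used to place S4 and S5. Nothing was enriched for immune cells, so in these bulk gonads more cells of a type and more RNA per cell cannot be told apart.

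MHC class II molecules are pairs of an alpha and a beta chain that show peptides from ingested proteins to helper T cells. They are made mainly by macrophages, dendritic cells and B cells. The invariant chain CD74 binds newly made class II molecules, blocks their peptide groove and carries them to the endosome. In mammals, cathepsin S then cuts the invariant chain down so that a peptide can take its place, and the thiol reductase IFI30 opens disulfide bonds in the ingested proteins. Beta-2-microglobulin belongs to the other arm, as the light chain of MHC class I.

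In these gonads the class II beta chain, the invariant chain and cathepsin S were at 2.5 to 2.7 times their fertile mean in the sterile group, and their levels moved in parallel over the 6 fish. The invariant chain comes first. Contig25050 (*cd74a*) had 22.3, 20.5 and 31.4 CPM in F1, F2 and F3, and 64.3, 40.2 and 79.9 CPM in S1, S4 and S5. The means were 24.7 ± 5.84 CPM in the fertile and 61.5 ± 20.02 CPM in the sterile gonads (SD, 3 fish each), which is 2.49-fold. Contig25051, the second *cd74a* unigene, had 21.8, 18.6 and 28.9 CPM in the fertile and 60.0, 37.8 and 80.7 CPM in the sterile fish. For both unigenes every sterile fish lay above every fertile fish, with S4 the lowest of the sterile and F3 the highest of the fertile group.

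The beta chain is held by Contig15336 and Contig1884, which share a zebrafish name and match mouse *H2-Ab1* and *H2-Eb1*, respectively. Contig15336 had 9.57, 8.67 and 12.7 CPM in F1, F2 and F3 and 28.4, 15.9 and 37.1 CPM in S1, S4 and S5, or 10.3 ± 2.09 against 27.1 ± 10.6 CPM (SD, n = 3 each). Contig1884 had 9.34, 7.83 and 11.95 CPM in the fertile and 25.5, 15.4 and 33.4 CPM in the sterile fish. The groups again did not overlap, and S4 was 1.26 and 1.29 times F3 for Contig15336 and Contig1884.

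Cathepsin S, the protease of the invariant chain, is held by Contig7181 and c19186_g2_i2_2260_23161, both named *ctssb.1*. Contig7181 had 3.97, 3.90 and 5.13 CPM in the fertile and 11.9, 7.88 and 15.0 CPM in the sterile fish, with means of 4.33 ± 0.692 and 11.6 ± 3.58 CPM (SD, n = 3 each). The second *ctssb.1* unigene had 4.08, 4.47 and 4.96 CPM in the fertile and 13.1, 6.39 and 15.3 CPM in the sterile fish. Here too no fertile fish reached the lowest sterile fish, which was S4 at 1.54 and 1.29 times F3 for Contig7181 and c19186_g2_i2_2260_23161.

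**Figure D1:**
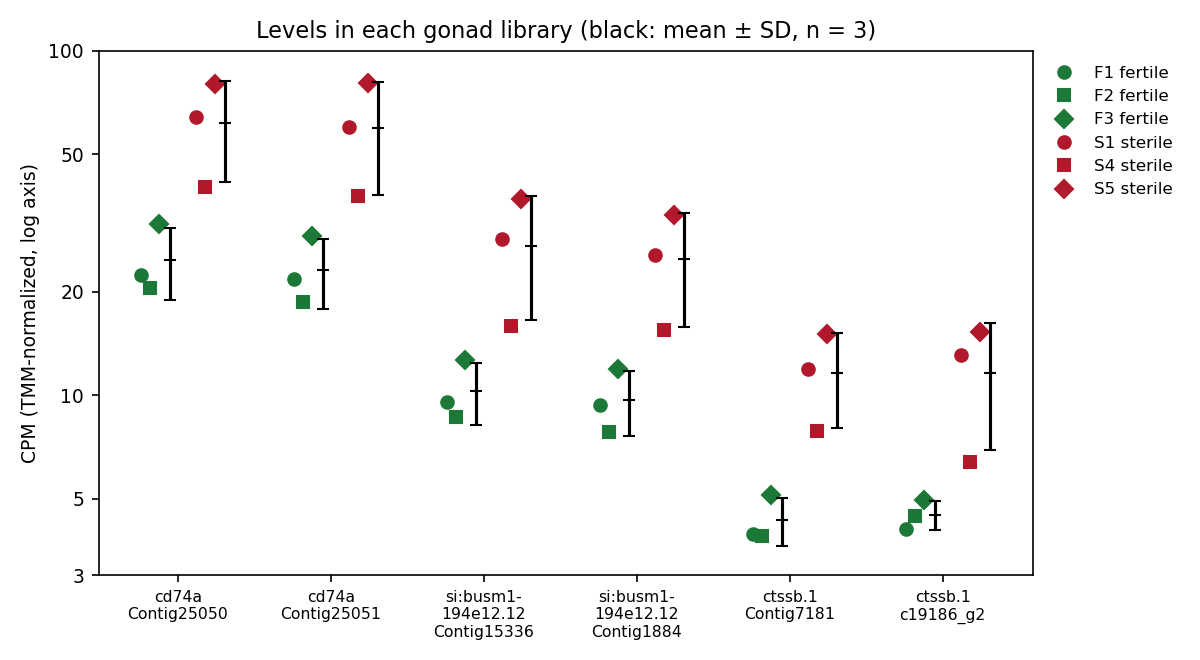
TMM-normalized CPM on a log axis for the 6 unigenes with counts in every library (x axis, where Contig15336 and Contig1884 are the beta chain). Green points are the fertile and red points the sterile fish, and black bars are mean ± SD (n = 3). In each unigene S5 is the highest, S1 the second and S4 the third, and F3 leads the fertile fish.

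The log2 fold changes, fertile over sterile, were -1.31 (standard error 0.25) for Contig25050, -1.36 (0.26) for Contig25051, -1.40 (0.28) for Contig15336, -1.35 (0.27) for Contig1884, -1.42 (0.23) for Contig7181 and -1.36 (0.29) for c19186_g2_i2_2260_23161. The smallest of these belongs to Contig25050. The study's methods ask for a fold change above 2, and unigenes outside its list carry no names here. Their median was -1.36, beside -0.01 over the 35787 unigenes tested. Every sterile fish was above every fertile fish in 6 of 6, where 11.2% of all unigenes tested show this pattern. With a call set at more than 2-fold and an adjusted *p* below 0.05, edgeR's quasi-likelihood test called none of the 6, and 0.0559% of all unigenes tested in this direction (0.137% in either). By contrast all 6 had an unadjusted *p* under 0.05 with that fold (1.87% of all unigenes tested in this direction), all 6 were called by DESeq2 (0.453%) and by edgeR's exact test (0.894%), and 0 by limma-voom (0.0279%). Since the unigenes were listed for this contrast, nothing is read from these counts.

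The edgeR call changed with 1 library and with the filter. Without the filter on low counts, the quasi-likelihood test of edgeR called Contig7181 alone among the 6 (adjusted *p* = 0.0414, background 0.0617%). Without S4, the sterile fish nearest to the fertile ones in the levels of these 6, edgeR's quasi-likelihood test called all 6 (background 0.0537%). Their adjusted *p* then lay between 0.0209 and 0.0477, whereas the alternatives together, DESeq2 and edgeR's exact test among them, spanned 4.42e-07 to 0.341. The log2 fold changes were then between -1.55 and -1.67. Without any other library none of the 6 was called (background 0.0984% without S1, 0.1% without S5, 0.117% without F1, 0.0432% without F2 and 0.0748% without F3). In each of these fits all 6 kept an unadjusted *p* under 0.05 with a fold above 2 in edgeR's quasi-likelihood test. Without S5, 3.35% of all unigenes tested did so in either direction. That share was not counted without S1, F1, F2 or F3, and nothing is read from it. With S1 as the only sterile fish, which leaves out both libraries of unmatched number, the log2 fold changes were -1.38 for both *cd74a* unigenes, -1.46 for Contig15336, -1.39 for Contig1884, -1.46 for Contig7181 and -1.54 for c19186_g2_i2_2260_23161. In that fit the lone sterile sample is assumed to vary like the fertile ones, and c19186_g2_i2_2260_23161 was called (background 0.0609%, adjusted *p* = 0.0391 in edgeR's quasi-likelihood test).

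The 3 genes kept nearly the same proportion to each other in every fish. For this comparison the 2 unigenes of a gene were summed, and ratios of CPM were read only from fish to fish, because unigene lengths were not used. Summed *cd74a* spanned 4.11-fold from its lowest fish (F2, 39.1 CPM) to its highest (S5, 161 CPM). The summed beta chain spanned 4.27-fold and summed *ctssb.1* 3.77-fold. The ratio of *cd74a* to the beta chain was nevertheless 2.33, 2.37 and 2.45 in F1, F2 and F3 and 2.30, 2.49 and 2.28 in S1, S4 and S5. It spanned only 1.09-fold, and the fertile mean of 2.38 ± 0.0611 and the sterile mean of 2.36 ± 0.113 (SD, n = 3 each) differed by less than the spread between fish. The ratio of *ctssb.1* to *cd74a* was 0.183, 0.214 and 0.167 in F1, F2 and F3 and 0.201, 0.183 and 0.189 in S1, S4 and S5, a span of 1.28-fold with overlapping groups. Invariant chain, beta chain and cathepsin S thus differed little in proportion between fish that differed severalfold in level. The unigenes of the 3 genes were all listed for being higher in the sterile group, by similar folds. Near-equal ratios between the groups were therefore largely fixed by the choice, and the ratios are given as a description. The span of such ratios among unigenes outside the pathway was not taken.

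The split between the same-named unigenes was also nearly the same in every fish for *cd74a* and the beta chain, and varied more for *ctssb.1*. In *cd74a*, Contig25050 took 50.5%, 52.4% and 52.0% of the counts of the pair in F1, F2 and F3 and 51.7%, 51.5% and 49.8% in S1, S4 and S5. The 95% Wilson intervals, which cover counting error only, ran from 48.4% to 51.1% in S5, with 4952 counts, and from 49.5% to 55.3% in F2, with 1153 counts. In the beta chain pair, Contig15336 took between 50.6% and 52.7% of the pair in the 6 fish. In *ctssb.1*, Contig7181 took between 46.6% in F2 and 55.2% in S4, where the interval ran from 50.8% to 59.6%. In S1 it took 47.7%, with an interval of 43.8% to 51.6%. The S4 interval overlaps those of the other 5 fish, which does not show that the shares are equal. The range over fish was 2.63 percentage points for *cd74a*, 2.09 for the beta chain and 8.66 for *ctssb.1*. Both unigenes of each pair were listed for being higher in the sterile group, by similar folds. Like shares in the groups were therefore largely fixed by the choice, and the shares are given as a description. In the same list of the study, 32 other symbols have at least 2 tested unigenes with at least 100 counts together in each library. For these the range had a median of 14.4 percentage points and ran from 0.829 to 70.0, and in 10 of the 32 it was no wider than that of *ctssb.1*. The unigenes of these 32 symbols were not required to differ in the same direction, which can widen their range. No fish lacked either unigene of these pairs. The sources used here do not say how reads fitting both unigenes were assigned, so the members of a pair are not independent measurements. With same-named unigenes summed, the log2 fold changes were -1.35 for *cd74a*, -1.37 for the beta chain and -1.39 for *ctssb.1*. In that fit edgeR's quasi-likelihood test called none of the 3 (background 0.0224%). All 3 had an unadjusted *p* under 0.05 with a fold above 2 in the same test. The share of all unigenes that did so was not counted, so nothing is read from this.

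**Figure D2:**
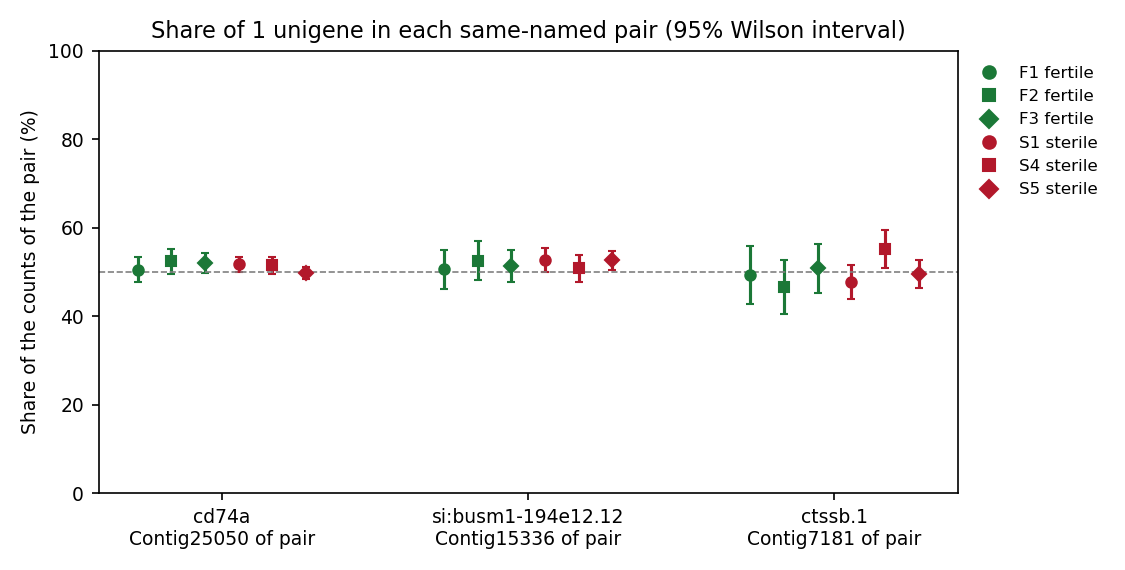
Share of the counts of each same-named pair (y axis, %) taken by its first unigene in each of the 6 fish, with 95% Wilson intervals; the dashed line marks an equal split. The shares lie between 46.6% and 55.2% in all fish of both groups.

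Around these members, 10 other unigenes of antigen presentation and endosomal proteolysis were taken from the study's list. All 10 were tested, 9 had log2 fold changes between -1.60 and -1.04 and 1 was positive, and their median was -1.15. edgeR's quasi-likelihood test called none of them (0.137% of all unigenes tested in either direction). All 10 had an unadjusted *p* under 0.05 with a fold above 2 (2.96% of all unigenes tested in either direction), while DESeq2 called 5 (0.835% of all unigenes tested in either direction), limma-voom 0 (0.0671%) and edgeR's exact test 9 (1.49%). The count of 10 was 4 without S5 (3.35% of all unigenes tested) and 6 against S1 alone (2.97%). In 9 of the 10 every sterile fish was above every fertile fish, as in 11.2% of all unigenes tested. They were selected on the same fish, as were the members. Without S4, edgeR's quasi-likelihood test called both alpha chain unigenes, Contig1734 (adjusted *p* = 0.0454) and Contig26385 (adjusted *p* = 0.0441), and none of the other 8. The background higher in the sterile group was 0.0537% in that fit. Both alpha chain unigenes carry the same name, so they are not independent measurements. Against S1 alone the log2 fold change was -0.79 for *ifi30* (Contig26770), -1.05 for Contig1905 and -0.53 for Contig27323 (both *ctsk*), -0.54 for Contig26854 and 4.07 for *ctsd*.

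The class II alpha chain, the partner of the beta chain, is represented by Contig1734 and Contig26385, both named *si:busm1-48c11.3* and matched to mouse *H2-Aa*. Contig1734 had 8.68, 11.0 and 14.1 CPM in F1, F2 and F3 and 32.4, 18.7 and 45.6 CPM in S1, S4 and S5, with a log2 fold change of -1.51 (standard error 0.30). Summed over both unigenes, its ratio to the beta chain in F1, F2 and F3 was 1.004, 1.39 and 1.22, and in S1, S4 and S5 it was 1.26, 1.205 and 1.35. This span of 1.39-fold was wider than that of *cd74a* to the beta chain, and F1 was the lowest. Contig26854, listed under a neighbouring class II name, had 8 to 14 counts in each fertile fish and 14, 23 and 35 counts in S1, S4 and S5.

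The thiol reductase *ifi30* (Contig26770) had 11.6, 9.76 and 9.56 CPM in the fertile and 17.9, 21.4 and 48.1 CPM in the sterile fish. The order within the sterile group was not that of the members, because S4 lay above S1. Its ratio to *cd74a* spanned 2.08-fold, from 0.144 in S1 to 0.299 in S5. Cathepsin K, a collagen-degrading relative of cathepsin S, had the same order. Summed over Contig1905 and Contig27323, *ctsk* had 5.93, 4.91 and 5.76 CPM in the fertile and 9.88, 11.0 and 22.4 CPM in S1, S4 and S5. In all 6 members, the order among sterile fish was S5, S1, S4 and F3 was the highest fertile fish. Of the 10 other unigenes, 5 had that sterile order and 4 had S5, S4, S1. The share of all unigenes with either order was not counted.

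On the class I side, *mhc1uka* (Contig22714) had 12.2, 10.3 and 17.0 CPM in the fertile and 23.8, 18.3 and 43.6 CPM in the sterile fish. S4 was only 1.07 times F3. *LOC796419* (Contig22715), matched to the class I-like mouse *Mr1*, averaged 2.27 ± 0.438 CPM over the fertile and 5.20 ± 1.76 CPM over the sterile fish (SD, n = 3 each). Contig25675 carries the name of the immunoproteasome subunit *psmb10* but the mouse match *Psmb7*, and had a log2 fold change of -1.04 (standard error 0.24). The unigene on the other side was c5554_g1_i1_458_649, named *ctsd* (the aspartic protease cathepsin D) but matched in mouse to the pepsinogen *Pga5*, with 31, 17 and 15 counts in F1, F2 and F3 against 1, 9 and 6 counts in S1, S4 and S5.

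**Figure D3:**
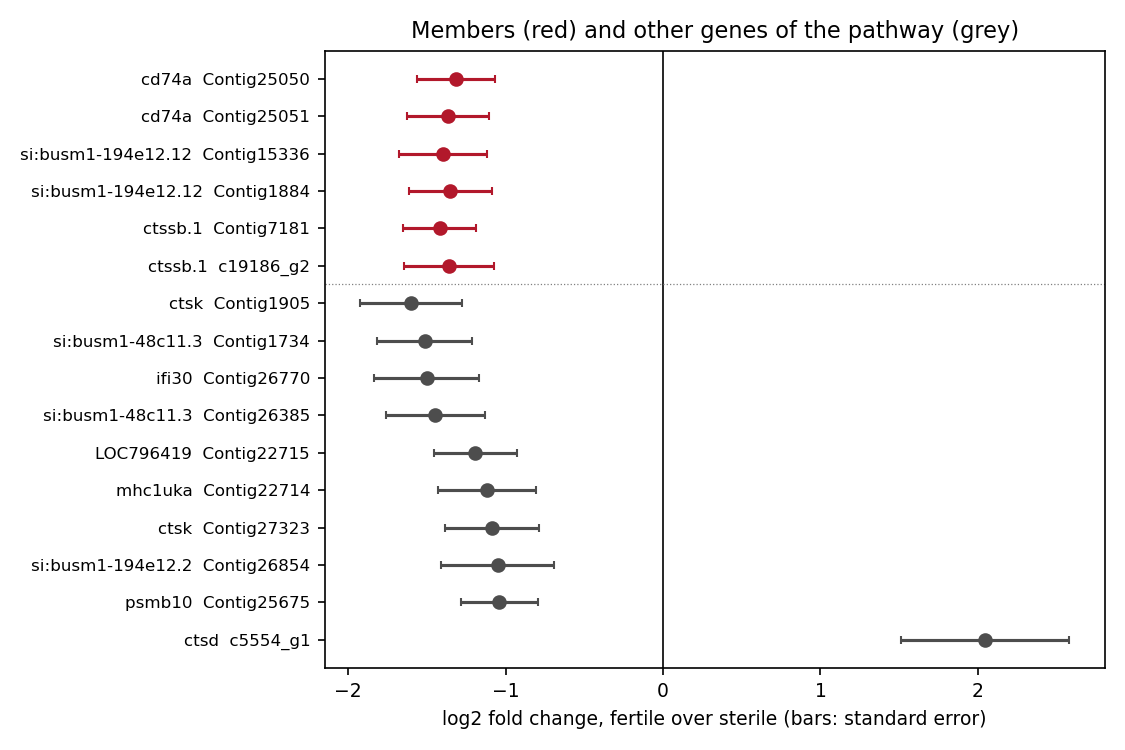
Log2 fold change, fertile over sterile, with its standard error, for the 6 members (red) and the 10 other unigenes (grey). All red points lie between -1.42 and -1.31, and only *ctsd* is to the right of 0.

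Markers of several cell types differed between the groups along with the members, those of leukocytes in the same direction and those of ovarian somatic and germ cells in the opposite one. The leukocyte list holds 10 unigenes, including *itgb2* (a leukocyte integrin chain), *spi1b*, *irf8* and *csf1ra* (genes of the macrophage lineage), and none was at 0 in any library. Their summed level was 5.52 to 8.96 CPM in the fertile and 15.4 to 29.1 CPM in the sterile fish, 2.83-fold higher on the mean, and the 8 tested had log2 fold changes from -1.75 to -1.15. The 3 unigenes named for C1q chains, made largely by macrophages, summed to 12.1 to 23.9 CPM in the fertile and 33.1 to 77.0 CPM in the sterile fish. Their order over the sterile fish was that of the members in 3 of 3, as it was in 8 of the 10 leukocyte unigenes. How common this order is among all unigenes was not counted. Ovarian somatic markers (*fshr*, the receptor of follicle-stimulating hormone, and *nr5a1b*) summed to 13.8 to 27.9 CPM in the fertile and 6.42 to 12.5 CPM in the sterile fish, 0.465-fold on the mean. Meiotic germ cell markers (*sycp3* and *spo11*) summed to 0.733 to 1.08 CPM in the fertile and 0.237 to 0.292 CPM in the sterile fish, or 0.300-fold. Neither sum overlapped between the groups. The share of all unigenes with every fertile fish above every sterile fish is not given here, so nothing is read from this. All these markers come from the study's list as well, and their part in the levels of the members was not tested. Name and mouse match differ for *nr5a1b* (Contig5671, *Nr5a2*), *c1qa* (Contig13817, *C1qc*) and the leukocyte unigene *btk* (*Tec*).

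The members were also set against the leukocyte markers of the same fish. Both were listed for being higher in the sterile group by similar folds, so that a ratio near 1 between the groups was largely fixed by the choice, and the ratios are given as a description. The ratio of *cd74a* to the summed markers was 5.56, 7.07 and 6.73 in F1, F2 and F3 and 6.58, 5.05 and 5.51 in S1, S4 and S5. The means of 6.45 ± 0.796 and 5.72 ± 0.782 (SD, n = 3 each) stood at 0.886-fold, sterile over fertile, and the groups overlapped. For the beta chain the ratio stood at 0.900-fold and for *ctssb.1* at 0.900-fold, again with overlapping groups. Leaving out any 1 fish gave values from 0.806 to 1.02 over the 3 genes. With the geometric mean of the markers in place of their sum, the values were 0.796 for *cd74a*, 0.809 for the beta chain and 0.800 for *ctssb.1*.

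**Figure D4:**
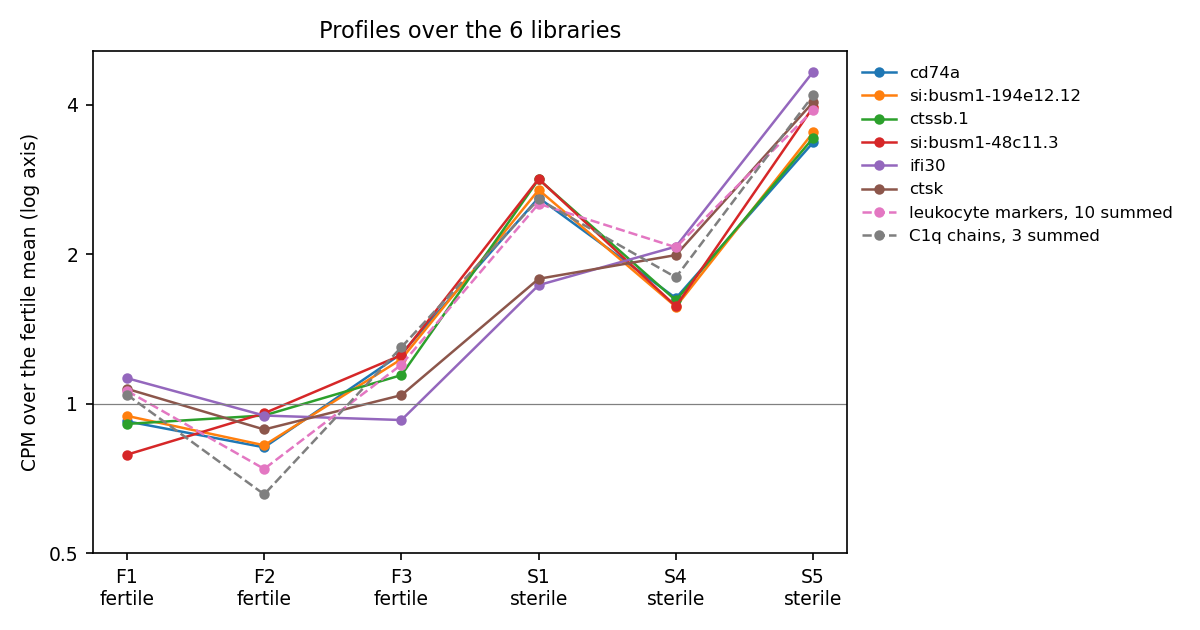
CPM of each gene or marker list in the 6 libraries, divided by its mean in the fertile fish (log axis); lines only join the points of a gene. *cd74a*, the beta chain and *ctssb.1* nearly coincide, C1q and the leukocyte sum run beside them, and *ifi30* and *ctsk* are higher in S4 than in S1.

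Likeness to the other unigenes was measured as the root mean square difference between centred log2(CPM + 1) profiles over the 6 libraries, among 35787 unigenes, of which only those in the study's list have names. For Contig25050, 11 of the other 35786 unigenes lay nearer than the farthest of the remaining members, and the nearest were Contig25051 at 0.0502 and Contig1884 at 0.0544. These 11 include the rest of the common members. The members were all listed for being higher in the sterile group, by similar folds. Near profiles among them were therefore largely fixed by the choice, and the distances are given as a description. Outside antigen presentation, the nearest named unigenes to Contig25050 were *grna* (Contig14240) at 0.0778, *gnpda2* (Contig14174) at 0.0838 and *c1qb* (Contig15238) at 0.134. *GRN* encodes the lysosomal glycoprotein progranulin, *GNPDA2* an enzyme of amino sugar metabolism, and *C1QB* a chain of complement C1q. For Contig15336 and Contig7181 the first 2 were the same unigenes, and the third was *si:ch211-270n8.1* (Contig16537). To Contig15336, *grna* lay at 0.0742, nearer than the *ctssb.1* members Contig7181 at 0.112 and c19186_g2_i2_2260_23161 at 0.138. The values of *grna* were 2.19, 1.76 and 2.90 CPM in the fertile and 6.92, 4.38 and 10.2 CPM in the sterile fish. The constant 1 in the logarithm shrinks the differences between fish for unigenes at low CPM, such as *grna*. With another constant the named unigenes changed.

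The 3 members counted in S4 and S5 alone had low counts. c6948_g1_i1_731_17351 (*cd74a*) had 37 counts in S4 and 14 in S5, c6709_g1_i1_295_21279 (*cd74a*) had 10 and 6, and the *b2m* unigene c6670_g2_i1_221_17292 had 13 and 7. In F1, F2, F3 and S1 all 3 had 0 counts. As the limit that a count of 0 allows, 3 counts over those 4 libraries were taken (0.0268 CPM). The mean in S4 and S5 was 28.6 times this limit for c6948_g1_i1_731_17351 and 9.07 times for c6709_g1_i1_295_21279. The mean of c6670_g2_i1_221_17292 was 0.303 CPM. Counting error in S4 and S5 is not included in these values. The 3 were set apart for having counts in S4 and S5 alone, so a high fold was fixed by the choice. None passed the filter on low counts. S1 is a sterile fish without them, so they do not separate the groups.

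Both *cd74a* unigenes of this kind took a small share of the counts under that name. Whether they come from the same gene as the common *cd74a* unigenes was not tested. Together they took 1.73% of all *cd74a* counts in S4 (47 of 2721, 95% Wilson interval 1.30% to 2.29%) and 0.402% in S5 (20 of 4972, 0.261% to 0.621%). S4 and S5 are 1 fish each, so a comparison of their counts is one of these libraries, and its intervals cover counting error only. S4 held 72.5% of the S4 and S5 counts of c6948_g1_i1_731_17351 (95% Wilson interval 59.1% to 82.9%), 62.5% of c6709_g1_i1_295_21279 (38.6% to 81.5%) and 65.0% of *b2m* (43.3% to 81.9%). The TMM-scaled library sizes alone give 52.6%. In the 6 common members S4 held 31.7% to 36.8%.

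In the whole table, 28 unigenes reached 5 counts in S4 and in S5 while having 0 elsewhere, and no other pair of libraries has more than 5. All 28 had a higher CPM in S4 than in S5. Beta-globin *ba1l* (Contig26821), of red blood cells, had 5, 7, 0 and 3 counts in F1, F2, F3 and S1 but 262 in S4 and 110 in S5, so S4 held 70.4% (95% Wilson interval 65.6% to 74.8%). The 4 unigenes of exocrine pancreas enzymes summed to 0.644 to 1.71 CPM in the fertile fish, 2.93 CPM in S1, 8.84 CPM in S4 and 12.8 CPM in S5. Of these, *PRSS1* and Contig19244 (*ela2*) were higher in S4 than in S5, and *cpa4* and Contig10079 (*ela2*) were higher in S5. In S1, Contig19244 lay below F1 and F3, whereas the others lay above every fertile fish. The part of blood, of other tissue or of another source of reads in the 3 unigenes was not tested.

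**Figure D5:**
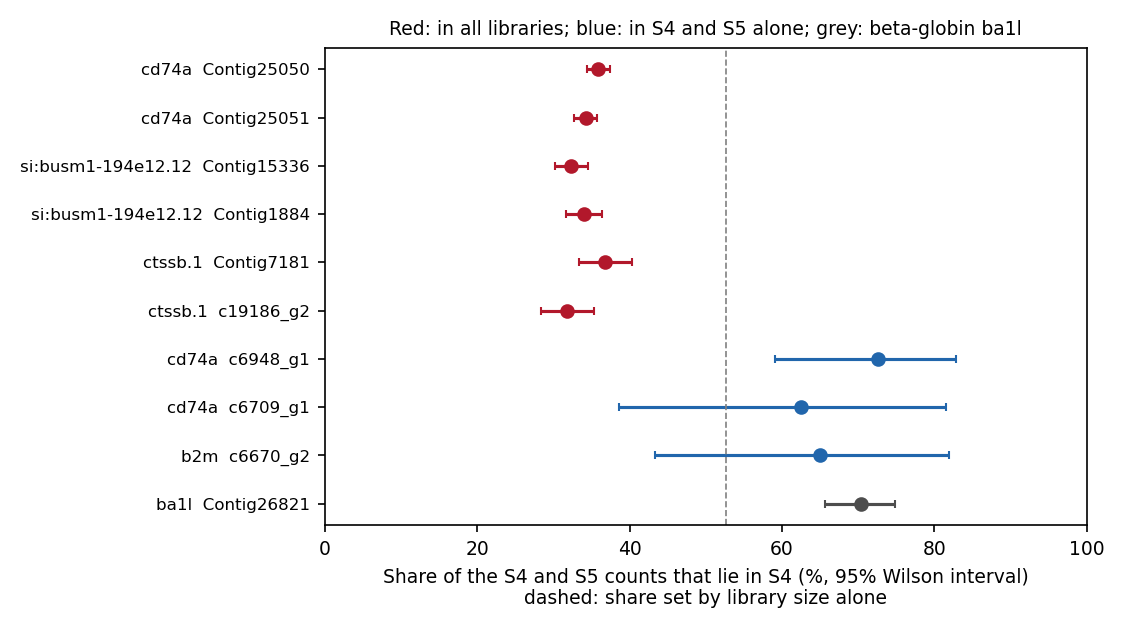
Share of the combined S4 and S5 counts that lie in S4 (x axis, %), with 95% Wilson intervals, for the 6 common members (red), the 3 counted in S4 and S5 alone (blue) and beta-globin *ba1l* (grey). The dashed line at 52.6% is the share that the TMM-scaled library sizes alone give. Red points lie at 31.7% to 36.8%, and blue and grey points at 62.5% to 72.5%.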

How the data were processed

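The table deposited by the authors holds raw counts per unigene for 6 gonad libraries. Per the methods, Trinity contigs of the filtered reads were clustered by CAP3 and named by tBlastx, and BWA did the mapping (version 0.7.8-r455, from the submitters' processing notes). Picard is named as the counter in the methods and HTSeq in the processing notes. Strand use and the treatment of reads that fit several unigenes were not given in the sources used here. Near-identical unigenes can share or divide reads. Libraries F1, F2, F3 and S1 match sample titles. S4 and S5 were placed by their letter, and 0 columns of counts remained unassigned. No library was a copy of another in a comparison of their counts. Duplicate reads within a library were not examined.

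The count test was that of edgeR 4.0.16 under R 4.3.3 (TMM, default filterByExpr, glmQLFit, glmQLFTest, Benjamini-Hochberg adjustment over 35787 unigenes). The thresholds are those of the study's methods. Each standard error was derived from the log2 fold change and its F statistic. The test was checked on simulated data. The *p*-values set the difference between the groups against the spread between these libraries only. Alternatives used DESeq2 1.42.0, limma 3.58.1, other normalizations and filters, same-named unigenes summed, each library left out and S1 as the only sterile library. Wilson intervals come from scipy 1.17.1.

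The members, the lists and the rule for named genes were chosen with earlier results of these data known. The named genes are all members, 10 fixed unigenes of the pathway and, for Contig25050, Contig7181 and Contig15336, the 3 nearest named unigenes by profile. No unigene identifier (0) was found in the RefSeq gene table (ASM2471397v2), which names 1 *cd74a* gene and 2 genes whose symbol starts with *ctss*.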

Additional observations from a re-analysis of the deposited data

How the results depend on the processing

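The number of the 6 members called, 0 in edgeR's quasi-likelihood test, was 1 without a low-count filter, 6 with DESeq2, 6 with edgeR's exact test, 1 against S1 alone, 6 at an unadjusted *p* under 0.05, and 0 to 6 with 1 library left out, the 6 arising without S4. Over all unigenes the count of 49 became 79 without a filter, 299 with DESeq2, 533 with edgeR's exact test and 24 with limma-voom. It was 27 with same-named unigenes summed and 34 to 97 with 1 library left out. At an unadjusted *p* under 0.05 with a fold above 2 it was 1059. The count of 6 members at an unadjusted *p* also asks for that fold. The cause of these differences was not tested. The log2 fold change of the 6 members stayed negative in all 90 alternative values, from -1.67 to -1.07. These are the values of each member in each alternative fit, and a value for summed unigenes counts once for each unigene of a pair. The members were listed for this sign. The pair shares (24 alternative values) and the ratios to leukocyte markers (21) moved by less than the SD between fish. Most of these values leave out 1 fish. That cannot move a mean share over 3 fish by 1 SD and can hardly move a ratio so far, so nothing is read from this. Of the 3 nearest named unigenes, 1 was kept with log2(CPM + 0.1) for Contig25050 and 1 for Contig7181, and 0 with log2(CPM + 5) for Contig15336. No paired analysis was possible because the columns of the 2 groups share only the number 1. Low counts limit the 3 members seen in S4 and S5 alone, whose totals were 16 to 51 counts.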
